A study of Homo sapiens with 2 samples.

Results

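The 7SL RNA copies and the protein and receptor genes of the signal recognition particle (SRP) were followed through RNA-seq libraries of HEK293 cells. The genes taken were RN7SL1, RN7SL2, SRP9, SRP14, SRP19, SRP54, SRP68, SRP72, SRPRA and SRPRB, 10 of the 59026 genes that could be matched in the tables, with 74 of the 206696 listed transcripts. RN7SL1 and RN7SL2 were selected on their normalised counts and length-normalised values, the highest of all genes in these libraries, so their levels are a description and were not tested. The remaining 8 genes were chosen by name, as they encode the proteins and receptor that work with this RNA, and their levels were seen before they were chosen.

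The libraries were made from rRNA-depleted total RNA of HEK293 Flp-In T-Rex cells, an embryonic kidney line that carries an insertion site and a repressor for tetracycline-controlled transgenes, grown in high glucose DMEM with foetal calf serum with no treatment named. Both libraries, replicate 1 and replicate 2, belong to 1 group with no control or second condition, and the labels do not say whether they were separate cultures, so the spread between them may be technical. They held 25158962 and 27143860 estimated counts. Of the genes chosen to check the cell line, KRT8, KRT18, VIM and NEFL held at least 1405 normalised counts in each library, whereas PAX2 and NEFM were between 14.5 and 50.1. PTPRC, ALB and MYH7, which mark blood, liver and muscle, were listed at 0 in both. HBB, a globin of red blood cells, held 179 and 182 normalised counts, and COL1A1, a collagen of fibroblasts, 156 and 291, and the source of these counts was not tested.

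SRP recognises the signal sequence of a secretory or membrane protein while it emerges from the ribosome, and delivers the ribosome to the endoplasmic reticulum. Its scaffold is 7SL RNA, a product of RNA polymerase III and the ancestor of the Alu repeats. SRP9 and SRP14 bind the Alu domain of the RNA, which slows elongation, and SRP19, SRP54, SRP68 and SRP72 bind the S domain, in which the GTPase SRP54 holds the signal sequence. The receptor is made of SRPRA, a GTPase that pairs with SRP54, and SRPRB, which anchors it in the membrane.

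RN7SL1 (299 nt, chr14:49586580-49586878, plus strand) and RN7SL2 (300 nt, chr14:49862550-49862849, minus strand) were set beside RN7SL3 (299 nt, chr14:49853616-49853914, minus strand) and RN7SL4P (295 nt, chr3:15738515-15738809, plus strand), the loci with the next highest counts. Positions are from GENCODE v44 (GRCh38). The copies are nearly alike, so much of each is shared. Of the 50-nt words of RN7SL1, 92 of 250 (36.8%) were absent from RN7SL2, and of the 100-nt words 94 of 200 (47.0%). Against all other genes, 211 of the 250 50-nt words of RN7SL1 (84.4%) were also found elsewhere. For RN7SL2 this held for all 251 (100%), and all of its 300 nt also lie in an exon of a lncRNA gene (ENSG00000282885). Of these 251 words, 93 (37.1%) were absent from RN7SL1.

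RN7SL1 reached 1581406 normalised counts in replicate 1 against 1786888 in replicate 2, which are the estimated counts divided by the authors' size factor of each library. RN7SL2 held 1264014 and 1263511. RN7SL2 was therefore almost equal in the libraries, and RN7SL1 was 1.13-fold higher in replicate 2. The pair took 10.7% of all estimated counts in replicate 1 and 12.1% in replicate 2, on average 11.4% ± 1.01 (SD, n = 2), of which RN7SL1 contributed 6.52% ± 0.819 and RN7SL2 4.88% ± 0.192.

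Levels of different genes were compared after division by transcript length and scaling to 1000000 per library. On this scale RN7SL1 was at 190781 in replicate 1 and 219580 in replicate 2, and RN7SL2 at 151983 and 154748. The copies together made up 34.3% and 37.4% of the length-normalised total, on average 35.9% ± 2.23 (SD, n = 2). RN7SK, the RNA of the 7SK particle, ranked next with 126147 ± 5039, then RPPH1, the RNA of nuclear RNase P, with 30028 ± 688 (SD, n = 2 each). EEF1A1, the protein-coding gene with the highest value, was at 3551 ± 389.7.

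RN7SL1 was above RN7SL2 in both libraries. Its count was 1.25-fold that of RN7SL2 in replicate 1 and 1.41-fold in replicate 2, with a mean log2 ratio of 0.41 ± 0.13 (SD, n = 2). Of the estimated counts of the pair, 55.6% lay on RN7SL1 in replicate 1 (95% exact interval 55.5 to 55.6%) and 58.6% in replicate 2 (58.5 to 58.6%). These intervals cover counting error only and are narrower than the difference between the libraries. A read can be told apart only where it covers a base that differs between the copies, and RSEM divides the rest by estimate.

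Beyond the pair, 678 genes named RN7SL were listed, and all but RN7SL3 carry the P of a pseudogene in their names. Their normalised counts summed to 16778 in replicate 1 and 20777 in replicate 2, which was 0.586% and 0.677% of the counts of all RN7SL genes. RN7SL3 and RN7SL4P took 85.5% of this remainder. RN7SL3 held 11172 and 14826 normalised counts and RN7SL4P 3144 and 2964, so RN7SL3 was higher in replicate 2 and RN7SL4P about equal.

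RN7SL3 is 97.7% identical to RN7SL1 over the length of RN7SL1, yet RN7SL1 held 129.6-fold more counts. Of the 50-nt words of RN7SL3, 34.4% occur in RN7SL1 or RN7SL2. RN7SL128P, RN7SL151P and RN7SL507P followed with means of 445 ± 145, 174 ± 0.603 and 118 ± 29.8 normalised counts (SD, n = 2 each). RN7SL4P and RN7SL128P lie within the spans of ANKRD28 and E2F3, on the opposite strand. Of the 678 loci, 243 were listed at 0 in both libraries, for which no share over all genes is given. A mean of 10 was reached by 45 of the loci, and by 19110 of all 59026 matched genes. The median identity of these 45 to RN7SL1 was 83.3% against 80.3% over all 678. Of the 678 loci, 9 shared a 50-nt word with RN7SL1 or RN7SL2, and for RN7SL507P the share of such words was 0%. These values are a description, and the part of shared reads in them was not tested.

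**Figure D1:**
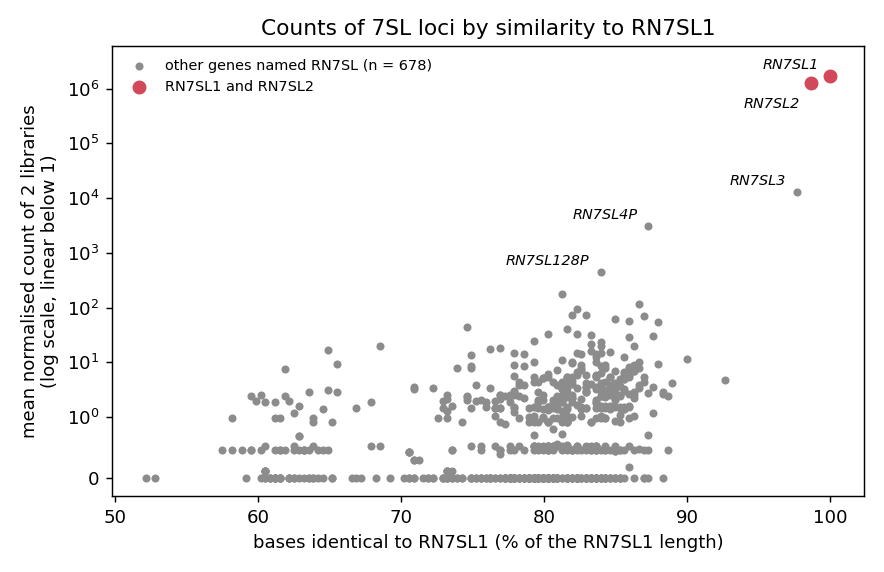
Mean normalised count of each RN7SL gene over the 2 libraries (vertical axis, log scale that is linear below 1) against the bases identical to RN7SL1, in percent of the RN7SL1 length (horizontal axis). RN7SL1 and RN7SL2 lie above 1000000, RN7SL3 at 12999 and RN7SL4P at 3054, and the median of the other 678 loci is 0.529.

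The mRNAs of the protein components were set beside this RNA. Together the 6 SRP protein genes held 0.0607% of the estimated counts in replicate 1 and 0.0483% in replicate 2, against the 10.7% and 12.1% of 7SL. Per length, the 7SL copies summed to 6271-fold the median of the 6 genes in replicate 1 and 8562-fold in replicate 2, with a mean log2 ratio of 12.84 ± 0.32 (SD, n = 2). The size of this ratio depended on the length used. It was 13.68 with the length of the canonical transcript, 13.51 with an effective length for fragments of 150 nt, 13.60 with protein-coding transcripts only and 10.44 without division by length. It is a ratio of RNAs and says nothing of protein amounts.

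Of the Alu-domain proteins, SRP9 had a length-normalised value of 191 in replicate 1 and 116 in replicate 2, and SRP14 of 96.0 and 88.7. SRP9, with a mean of 154 ± 53.3, was the highest of the 8 genes, and SRP14, with 92.3 ± 5.19, the next (SD, n = 2 each). SRP9 exceeded its partner 1.99-fold in replicate 1 and 1.31-fold in replicate 2.

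Of the S-domain proteins, SRP68 was at 43.9 and 46.4 and its partner SRP72 at 37.1 and 36.4 on the length-normalised scale, so SRP68 was 1.18-fold and 1.27-fold higher. SRP19, which helps SRP54 to bind the RNA, was at 65.4 in replicate 1 and 41.0 in replicate 2. SRP54 was at 25.5 and 19.1, the lowest of the 6 SRP proteins in both libraries. Of the receptor subunits, SRPRB was at 28.7 and 26.3 and SRPRA at 18.4 and 20.7, and SRPRB was 1.56-fold and 1.27-fold higher than SRPRA.

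**Figure D2:**
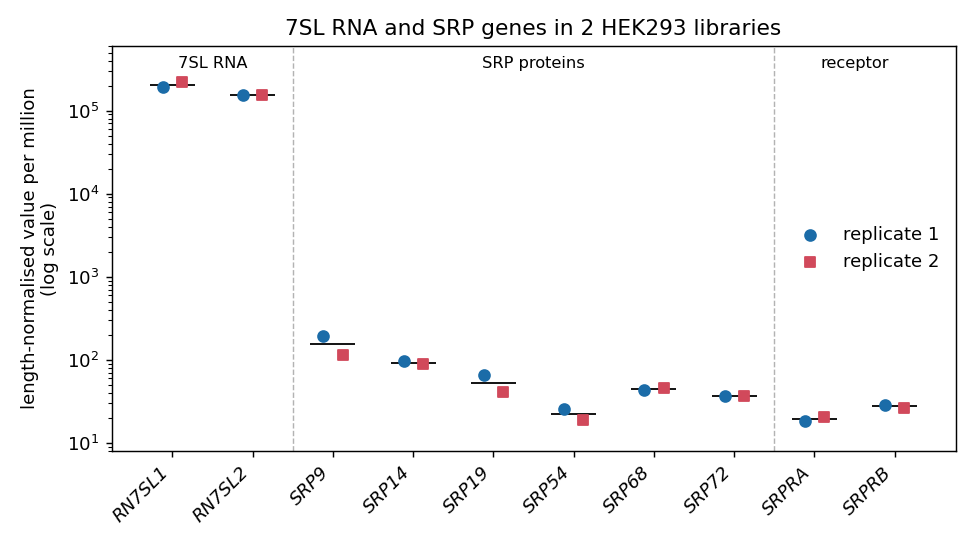
Length-normalised value of each gene, scaled to 1000000 per library (vertical axis, log scale) in replicate 1 (circles) and replicate 2 (squares), with the mean as a line. RN7SL1 and RN7SL2 lie at 151983 or more in each library, and the 8 protein and receptor genes between 18.4 and 191.

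A pair of genes was called ordered where the libraries ranked it alike and its means lay further apart than the SDs of both genes added. No p-value is given, as with 2 libraries the smallest two-sided p of a sign-flip test is 0.5. Of the 28 pairs of the 8 protein and receptor genes, 24 were ordered. The same held for 73.3% of all pairs among the 3588 protein-coding genes within the range of these levels. The 4 pairs that were not ordered were SRP19 with SRP68, SRP19 with SRP72, SRP54 with SRPRA and SRP54 with SRPRB. SRP19 exceeded SRP68 in replicate 1 only.

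The place of SRP19 depended on its transcripts. Divided by the length of the canonical transcript, its mean was 15.7 ± 4.08, and with protein-coding transcripts only it was 13.96 ± 5.19, against 53.2 ± 17.3 over all transcripts (SD, n = 2 each). It thereby went from the third highest to the lowest of the 8 genes with canonical lengths, and to the seventh with coding transcripts. SRPRB went from 27.5 ± 1.71 to 12.5 ± 1.56 with coding transcripts only, below SRPRA at 16.2 ± 0.164, so the order of the receptor subunits was reversed. The order of SRP68 and SRP72 was reversed as well, with SRP68 at 26.1 ± 2.52 and SRP72 at 31.5 ± 1.36 in coding transcripts only. SRP9 and SRP14 were the highest pair in all these settings.

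The libraries were then compared gene by gene on the scale of normalised counts. None of the 10 genes differed by more than 2-fold, while 5.23% of the 19110 genes that averaged 10 or more normalised counts did. SRP9 differed most among them, with 6449 normalised counts in replicate 1 against 3706 in replicate 2, a log2 difference of -0.80 (replicate 2 minus replicate 1). Of all these genes, 8.63% differed by more than SRP9. These shares take in genes with far lower counts than the SRP genes and were not matched for level. SRP19 held 1273 and 869 normalised counts (log2 -0.55), and SRP54 1349 and 988 (log2 -0.45).

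The other genes were closer. SRP68 held 2618 and 2588 normalised counts, SRPRA 1365 and 1379, SRP14 2074 and 1924, SRP72 2407 and 2078, and SRPRB 1402 and 1180. All 6 SRP protein genes were lower in replicate 2, as were 55.2% of the 19110 genes. When scaled to 1000000 counts or by TMM factors, 5 of the 6 were lower and SRP68 was slightly higher in replicate 2, with log2 differences of 0.06 and 0.02. Over the 19110 genes the median log2 difference was -0.06 as normalised, 0.02 scaled to 1000000 counts and -0.02 by TMM factors. The share of all genes lower in replicate 2 was taken on normalised counts only. On the log2 scale of normalised counts RN7SL1 was at 0.18 and RN7SL2 at -0.00, the latter near SRP68 at -0.02. Scaled to 1000000 counts they were at 0.26 and 0.08, and by TMM factors at 0.22 and 0.04.

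**Figure D3:**
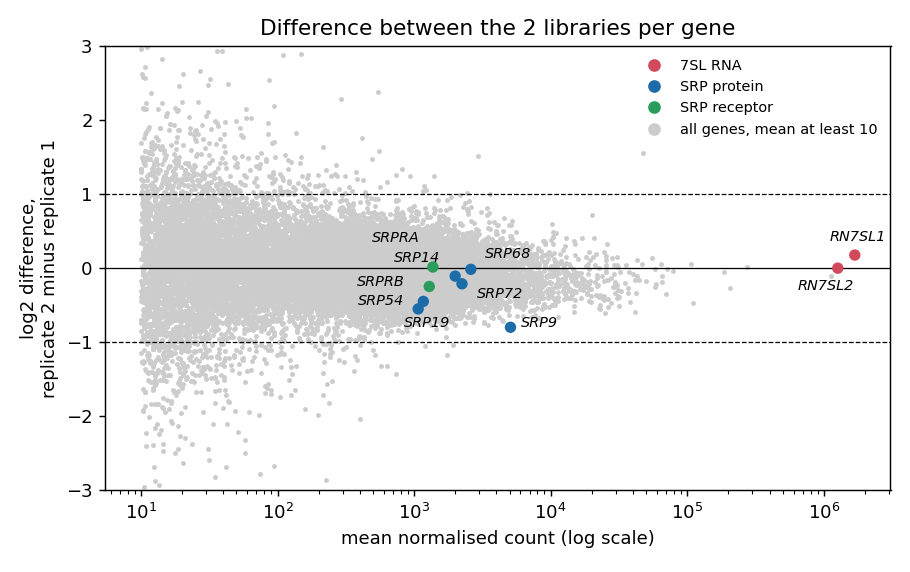
Log2 difference between the libraries, replicate 2 minus replicate 1 (vertical axis), against the mean normalised count (horizontal axis, log scale) for 19110 genes with a mean of at least 10, of which 113 lie outside the plotted range. Dashed lines mark a 2-fold difference. All 10 genes of interest lie between them, from -0.80 for SRP9 to 0.18 for RN7SL1.

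The difference of SRP9 lay mostly on 1 transcript. SRP9-201, which encodes the canonical protein of 86 amino acids, was at 4220 normalised counts in replicate 1 against 1704 in replicate 2, a 2.48-fold difference. SRP9-203, with an alternative protein of 82 amino acids, held 1364 and 1388, and SRP9-202, with 66 amino acids, 865 and 613. Only 3.42% of the 50-nt words of SRP9-201 were absent from the other SRP9 transcripts, so its separation from SRP9-203 is uncertain.

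A processed copy also shares reads with SRP9. SRP9P1 (chromosome 10, 91807179 to 91807439, minus strand) is 261 nt long, and all of its 50-nt words occur in SRP9 transcripts. Its normalised counts were 240 in replicate 1 and 424 in replicate 2, opposite in direction to SRP9. Summed with it, SRP9 was still lower in replicate 2, with 6689 and 4130 (log2 -0.70). Of the other 10 pseudogenes named after SRP genes, SRP72P2 held 38.3 ± 3.99 normalised counts and SRP72P1 12.3 ± 1.83 (SD, n = 2 each), and 8 were below 10.

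Transcripts of the 8 protein and receptor genes were examined next. They had 72 listed transcripts, of which 15 were at 0 in both libraries. Zeros were common in the whole series too. Among its 206696 listed transcripts, only 101920 received any count in replicate 1, and 106754 did so in replicate 2. The share of all transcripts at 0 in both libraries was not taken, so the 15 are a description. A value of 0 can come from the division of shared reads as well as from depth. For 5 of these 15 transcripts, from SRP9, SRP19 and SRP68, 0% of the 50-nt words were absent from the other transcripts of the gene, so the counts set no limit to their share. For 7 of the 8 genes 1 transcript led in both libraries, and so it did for 78.5% of the 16735 genes with several transcripts. This background required a gene total of only 1 in each library and was not matched for level. In SRP68 the leader was SRP68-202 in replicate 1 and SRP68-211 in replicate 2. Of the 43 transcripts of these genes that averaged 10 or more normalised counts, 7 differed by more than 2-fold between the libraries, and 29.6% of all such transcripts did.

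Protein-coding transcripts held a median of 94.4% ± 0.191 of the normalised counts of the 8 genes (SD, n = 2), where the median over 12743 protein-coding genes was 91.7% ± 0.508. They held all counts of SRP9, but only 39.4% ± 2.43 of SRP19, 65.6% ± 8.63 of SRP68 and 75.2% ± 0.986 of SRPRB (SD, n = 2 each).

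In SRP19 the leader was SRP19-205, a 2-exon transcript of 473 nt with a retained intron (chromosome 5, 112864609 to 112867752, plus strand). It took 45.7% of the SRP19 counts in replicate 1 (95% exact interval 42.9 to 48.6%) and 40.9% in replicate 2 (37.7 to 44.1%). Per length its share was 67.6% ± 0.333 (SD, n = 2). None of its 50-nt words (0%) was absent from the other SRP19 transcripts, so the division of its reads is uncertain. The intervals cover counting error only. The coding transcript SRP19-201, with 110 amino acids, took 30.5% and 23.3%, and SRP19-208, annotated for nonsense-mediated decay, 8.75% and 16.2%. The coding sequence of the canonical transcript was held by 9.89% ± 2.55 of the counts (SD, n = 2).

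In SRP68 the counts were spread over 4 transcripts. SRP68-202 (589 amino acids) took 35.1% in replicate 1 and 32.6% in replicate 2. SRP68-211, annotated for nonsense-mediated decay, took 22.5% and 33.9%. The canonical SRP68-201 (627 amino acids) took 23.2% and 9.79%, and SRP68-212 (288 amino acids) 13.4% and 17.2%. The gene total was near equal in the libraries, but SRP68-201 was 2.40-fold higher in replicate 1, with 608 normalised counts against 253. At most 2.01% of the 50-nt words of each of these transcripts were absent from the other SRP68 transcripts, so the division of their reads is uncertain.

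The leading transcripts of SRP14 had nearly the same shares in both libraries. SRP14-204, with a predicted protein of 56 amino acids, took 78.2% in replicate 1 (95% exact interval 76.3 to 80.0%) and 80.3% in replicate 2 (78.6 to 82.0%). The canonical SRP14-201, with 136 amino acids, took 14.1% and 14.4%. SRP14-207, with no defined coding sequence, took 5.66% and 2.44%, a 2.50-fold difference in normalised counts (117 against 47.0), and the retained-intron SRP14-202 0.262% and 1.34%. SRP14-204 remained ahead per length, with a share of 80.1% ± 2.82 (SD, n = 2).

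SRP54 was led by SRP54-208 (440 amino acids), with 53.0% in replicate 1 and 68.3% in replicate 2, ahead of the canonical SRP54-201 (504 amino acids) with 40.4% and 26.4%. SRP54-201 held 545 and 261 normalised counts, a 2.09-fold difference, and SRP54-208 held 716 and 674. As RSEM divided the reads, the difference of SRP54 between the libraries lay mostly on the canonical transcript. None of the 50-nt words of SRP54-201 (0%) and 2.47% of those of SRP54-208 were absent from the other SRP54 transcripts. This division of reads is therefore uncertain.

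SRP72 was led by the canonical SRP72-205 (671 amino acids), with 52.6% and 46.4%, followed by SRP72-204 (610 amino acids) with 32.9% and 35.2% and the incomplete model SRP72-202 with 9.54% and 12.1%. Per length the leading pair did not differ beyond its spread, with 31.3% ± 0.993 for SRP72-204 and 28.6% ± 4.77 for SRP72-205 (SD, n = 2 each). Of the 50-nt words of SRP72-205, SRP72-204 and SRP72-202, 1.47%, 1.99% and 4.81% were absent from the other SRP72 transcripts. The division of their reads is therefore uncertain.

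The receptor genes were each led by transcript 201. SRPRA-201 (638 amino acids) took 91.3% and 83.1% of SRPRA. SRPRB-201 (271 amino acids) took 75.8% and 74.5% of SRPRB, and SRPRB-202, annotated for nonsense-mediated decay, 13.3% and 8.51%. SRPRB-205, with a retained intron, took 7.13% and 12.03%, above SRPRB-202 in replicate 2. Per length SRPRB-205 took 22.7% and 35.8%, against 47.1% and 43.4% for SRPRB-201. Over the 8 genes, the coding sequence of the canonical transcript held between 9.89% of the counts in SRP19 and 87.2% in SRPRA. The canonical transcript led in both libraries in 3 genes, SRP9, SRP72 and SRPRA. This count has no share over all genes beside it and is a description. For SRPRB none of the 5 transcripts analysed is the canonical one, and SRPRB-201 has the same coding sequence.

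**Figure D4:**
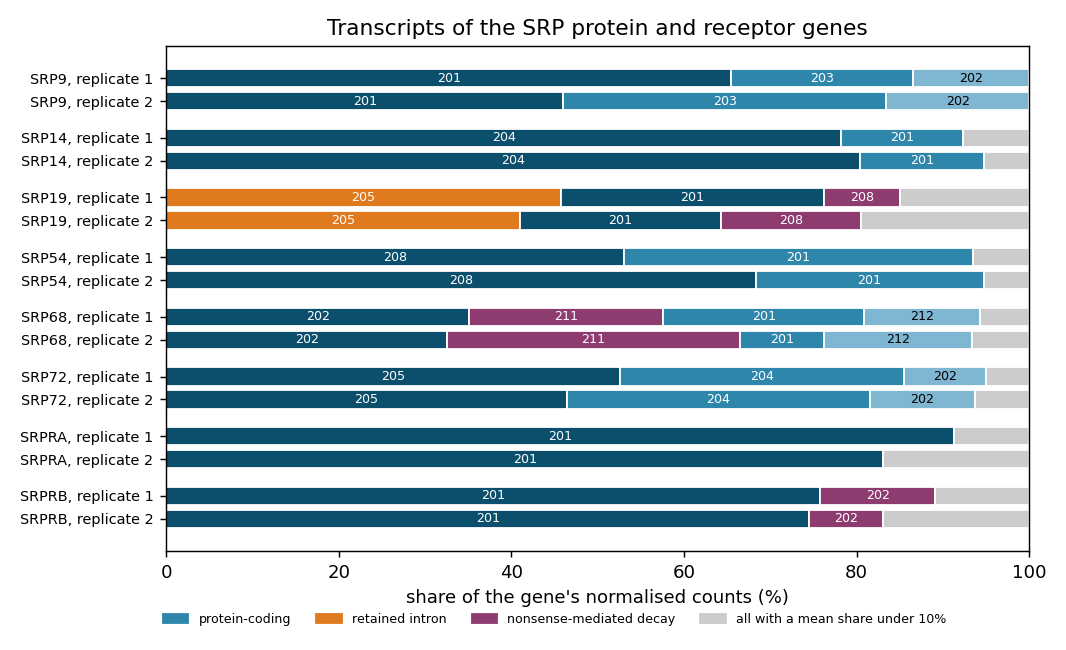
Share of each transcript in the normalised counts of its gene (horizontal axis, %), 1 bar per library. Numbers are transcript names without the gene, shades of blue are protein-coding transcripts, orange a retained intron, purple nonsense-mediated decay, and grey all transcripts with a mean share under 10%. SRP19 is led by a retained-intron transcript in both libraries, and SRP68-211 has 22.5% in replicate 1 and 33.9% in replicate 2.

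The SRP genes were set beside other genes of the same route on the length-normalised scale. The median of the 6 SRP proteins was 49.2, and that of the receptor subunits 23.5. The Sec61 translocon and its partners, through which the nascent chain enters the endoplasmic reticulum, had a median of 43.3, from 2.94 for TRAM2 to 158 for the translocon-associated protein gene SSR4. Signal peptidase, which removes the signal sequence, had a median of 20.0, from 5.38 for SPCS1 to 74.6 for SEC11A. The oligosaccharyltransferase had a median of 65.3, from 6.26 for MAGT1 to 133 for RPN2.

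The list of nascent chain factors, from the nascent polypeptide-associated complex and the GET and SND targeting routes, had a median of 42.9. It ran from 2.89 for GET3 to 550 for NACA, a subunit of that complex. RNA polymerase III, its factors and SSB, the La protein that binds new polymerase III transcripts, had a median of 16.6, from 2.88 for POLR3B to 77.0 for GTF3C1. Of the 60 genes in these 5 lists, 0 differed by more than 2-fold between the libraries, where 5.23% of all genes did. The 5 signal peptidase genes were all lower in replicate 2, with log2 differences from -0.98 to -0.30, also when scaled to 1000000 counts or by TMM factors. On the scale of normalised counts 9 of 12 Sec61 genes, 8 of 11 oligosaccharyltransferase genes, 4 of 10 nascent chain factors and 13 of 22 genes of RNA polymerase III and its factors were lower in replicate 2, where 55.2% of all genes were.

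**Figure D5:**
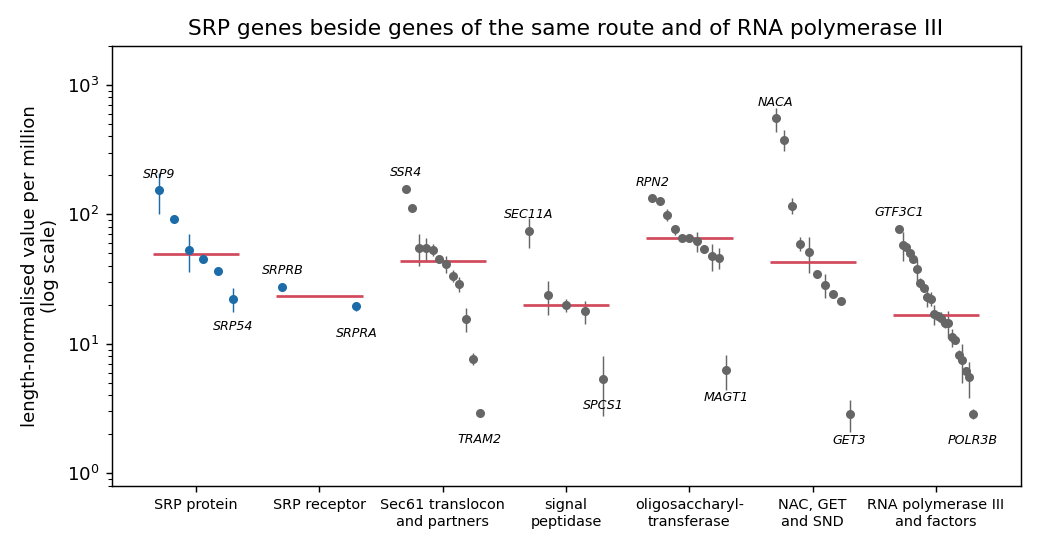
Mean length-normalised value of each gene, scaled to 1000000 per library (vertical axis, log scale) with its SD over the 2 libraries as a bar, and the median of each list as a red line. SRP protein genes span 22.3 for SRP54 to 154 for SRP9, and the highest gene shown is NACA at 550.

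Some of these genes overlap others, and whether the counting used strand was not given in the sources used here. RN7SL1 lies within the span of RPS29 on the opposite strand, without exonic overlap. All 300 nt of RN7SL2 lie in an exon of a lncRNA gene (ENSG00000282885) on the same strand, which held 9.59 ± 4.39 normalised counts (SD, n = 2). SRP19 shares 368 nt of exon with REEP5 on the opposite strand, 3.50% of its exonic bases, and REEP5 held 1820 ± 304.0 normalised counts. It also shares 1470 nt (13.98%) with ZRSR2P1 on the same strand, a pseudogene with 7.70 ± 1.297 normalised counts. SRPRB shares 381 nt (9.09%) with RAB6B and 388 nt (9.26%) with a lncRNA gene (ENSG00000285908), both on the opposite strand, and SRPRA 121 nt (2.92%) with FOXRED1. SRPRB also shares 122 nt (2.91%) with TF on the same strand, which held 66.2 ± 11.1 normalised counts. The part of these overlaps in the counts was not tested.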

How the data were processed

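Processing by the authors. RNA of HEK293 Flp-In T-Rex cells was extracted with TRI reagent, treated with DNase, depleted of rRNA and made into TruSeq libraries, which were quantified per transcript. STAR 2.7.0d and RSEM 1.3.3 are listed in the submitters' processing notes, and GRCh38 with the Ensembl annotation is the reference named by the study. The deposited tables hold the estimated count per transcript, not divided by length or library size, and a normalised signal, which is the estimated count divided by the authors' size factor of 0.945 for replicate 1 and 1.08 for replicate 2.

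Computation. Transcript identifiers, stripped of their versions, were looked up in GENCODE v44, which matched 202217 of 206696 transcripts and 96.9% and 96.8% of the counts. Of the 72 SRP transcripts, 10 had another version there. Sums per gene were made over matched transcripts. Levels between genes were counts divided by transcript length, scaled to 1000000, without effective length correction. Log2 differences used a pseudocount of 1. Values are means ± SD over 2 libraries of 1 group, so no test between groups was made. Rounded counts of the libraries differed beyond sampling noise (chi-square 21.5 times its degrees of freedom over 22310 genes), so they were not treated as 1 library. Intervals are exact (Clopper-Pearson) on rounded estimated counts and do not cover the division of shared reads. Python 3.11.15 and edgeR 4.0.16 (TMM factors, rounded counts) were used. Canonical coding sequences and protein lengths were read from the GENCODE annotation.

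The members and gene lists were chosen with earlier results of these data known. Named were all members, their transcripts that averaged 10% or more of a gene, the 5 next RN7SL loci, the 3 highest pseudogenes, the highest and lowest gene of each list and genes over 2-fold between the libraries. RMRP and RNY5, of the RNA polymerase III transcripts chosen, were not analysed here, nor were the tables that hold METTL8 transcripts only. Alternatives were lengths, units, scalings, transcript classes, filters and each library alone. The sequences of the 7SL copies are not reported here.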

Additional observations from a re-analysis of the deposited data

How the results depend on the processing

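No paired analysis was possible because the libraries form 1 group. Leaving out either of 2 libraries moves a mean by less than 1 SD by construction, which makes these 8 alternatives uninformative. A further 23 were tried, of which 15 gave a value within the spread between the libraries or a count within 1.5 times. The 7SL share of 11.4% became 35.9% when counts were divided by length, which is another unit, and 19.8% when only transcripts with the same version were kept, where fewer transcripts form the total. The log2 ratio of 7SL to SRP protein mRNA (12.84) was 10.44 without division by length, 13.68 with canonical transcript lengths, 13.51 with an effective length for fragments of 150 nt and 13.60 with protein-coding transcripts only. The protein-coding share of the SRP genes (94.4%) was 84.4% per length and 95.1% once transcripts under 10 normalised counts in either library were left out. Each of these settings changes the unit or the transcripts counted by its construction. The ordered pairs of SRP genes numbered 20 to 25 of 28 over 4 alternatives, and the genes over 2-fold between the libraries were 0 of 10 in each of 4. Depth gave the SRP genes between 937 and 6095 estimated counts per library, and how RSEM divides reads between transcripts with shared sequence limits the transcript shares beyond depth.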

Other observations

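Of the RNAs made by RNA polymerase III other than 7SL, RN7SK and RPPH1 were close to equal in the libraries, with log2 differences of -0.11 and 0.02 (replicate 2 minus replicate 1). RNY3, a Y RNA bound by the Ro protein, was at 1622 normalised counts in replicate 1 against 3267 in replicate 2. Its log2 difference of 1.01 was the only one over 2-fold among the 5 genes of this list that averaged 10 or more normalised counts. Of all 19110 genes with such a mean, 5.23% differed by more than 2-fold. RNY1 was at 565 and 886 (log2 0.65), and RNY4 at 28.6 and 26.9. The vault RNAs VTRNA1-1, VTRNA1-2 and VTRNA1-3 held means of at most 5.89 normalised counts, and VTRNA2-1 was listed at 0. The recovery of these RNAs in the libraries was not tested.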
